A study of Mus musculus with 21 samples.

Results

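CD4 T cells that had spent 5 days in IL-12 with IL-21 were compared with cells that had spent them in IL-12 alone, in each case among the cells that showed no signal from a reporter of the IL-23 receptor gene. The comparison used 4 of the 21 libraries in the series, replicates 1 and 2 of IL-12+IL-21 GFPneg and replicates 2 and 3 of IL-12 GFPneg. It covered 8554 of the 23415 gene rows, those with at least 1 TPM in at least 2 of these 4 libraries. TPM is the share of a library's transcripts that belongs to a gene, corrected for gene length and scaled to the same total in each library. The spleens and lymph nodes that gave the naive CD4 T cells were those of mice carrying 1 wild-type and 1 eGFP allele of Il23r (Il23r wt/eGFP). That reporter allele makes no working receptor, so cells of both groups had a single functional copy of the gene. All cells were activated with plate-bound antibodies against CD3 and CD28, with IL-12 at 20 ng/ml and, in 1 group, also IL-21 at 20 ng/ml, and were then sorted by eGFP. Bulk libraries were made by SMART-Seq2, a full-length cDNA method for small numbers of cells. GFPneg means no eGFP signal at the sort. In the series IL-12 alone is represented by GFPneg cells, and IL-12+IL-21 by GFPneg and GFPpos cells. The labels do not tell whether replicates are separate mice or cultures, so p-values measure the spread between these libraries, which may be technical.

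IL-12 signals through its receptor and STAT4 and drives naive CD4 T cells toward the Th1 type, which makes interferon gamma under the transcription factor T-bet. IL-21, a cytokine of follicular helper and Th17 cells, binds the IL-21 receptor paired with the common gamma chain and acts through JAK1 and JAK3, chiefly on STAT3. It is known to raise its own transcript and that of the IL-23 receptor in CD4 T cells, and to act on granzyme B and IL-10 in several lymphocyte types.

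One library of each group was left out because it had fewer than 7000 genes at 1 TPM or more. IL-12+IL-21 GFPneg replicate 3 had 1331 such genes and IL-12 GFPneg replicate 1 had 4109, against 8353 and 8214 in the IL-12+IL-21 libraries used and 8384 and 7980 in the IL-12 libraries used. The nearest libraries of the series on either side of the limit had 7522 and 5608. Ribosomal protein genes made up 48.4% and 61.0% of the TPM of these 2 left-out libraries, against 37.1% and 42.5% in the IL-12+IL-21 pair and 34.6% and 34.4% in the IL-12 pair. The left-out libraries do not share several of the differences described here, and their values stand beside many of the results, not all. Some genes reported below as changed were above 0 in both. Of these, Ifng, Gzmb, Ccl3, Serpinb9, Irf8, Tnfrsf4, Ndufa4 and Ndufa5 go against the labels. Ccl4, Isg15, Cd74, Ly6a, Satb1, Vim and Eef1a1 go with them, as by a small margin do Ccl5 and Gpx1. Whether the 2 labels are right was not tested. The median log2 change of all genes was -0.12 without them. It was 0.525 with IL-12 replicate 1 restored and -0.854 with IL-12+IL-21 replicate 3 restored. Many genes thus read low in each, and for a gene that does, its order there cannot settle whether its difference holds. Gzmb (2118 TPM), Ifng (1369 TPM) and Irf8 (228 TPM) did not read low in IL-12+IL-21 replicate 3. The cause of their levels there was not tested. In log2(TPM + 1) the 2 used libraries of IL-12+IL-21 correlated with r = 0.972 and those of IL-12 with r = 0.964, against 0.956 to 0.962 between the groups, across genes. The T cell genes Cd3e (76.2 and 48.3 TPM with IL-21, 61.2 and 58.2 without) and Cd4 (126 and 74.3, against 111 and 120) were present in all 4. Cd8a was at 0.29 TPM in 1 library and listed at 0 in 3. Cd8b1, the other CD8 marker, was at 5.65 and 8.14 TPM with IL-21 and 6.73 and 5.37 TPM without. Cd79a, Lyz2, Csf1r, Itgam, Ncr1, Klrb1c, Hbb-bs and S100a8, which define B, myeloid, natural killer, red and neutrophil cells, were listed at 0 in all 4. They are picked from longer lists with other members present. Listed at 0 in all 4 were 4 of 11 B cell, 10 of 17 myeloid and dendritic and 10 of 12 natural killer markers. Of the B cell markers, Ighm was at 8.03 and 9.83 TPM with IL-21 and 13.5 and 23.1 TPM without. Ebf1 (5.03 and 5.01, against 4.2 and 1.59) and Fcer2a (3.11 and 2.28, against 1.08 and 2.6) were present too. Xcr1 (4.77 and 5.84, against 3.26 and 2.87) and Batf3 (117 and 135, against 100 and 115) were also present. Ms4a1 was at 0.16 TPM in 1 library and Trdc at 0.81 TPM in 1. Of the whole list of 16 erythroid and neutrophil markers 14 were listed at 0 in all 4 libraries, and the summed level was 14.1 and 13.2 TPM with IL-21 and 26.5 and 48.2 TPM without. The other 2, named after their values were seen, were Ly6g (6.18 and 6.51 TPM against 20.6 and 42.6 TPM) and Csf3r (7.87 and 6.67 TPM against 5.84 and 5.64 TPM). The part of these markers in the results was not tested. In a bulk sample, fewer cells that make a transcript and less transcript per cell cannot be told apart.

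The promoters of 4 genes described here are shown because they lie on both sides of the comparison and hold letters that STAT or IRF proteins are known to bind. TTCNNNGAA is the core of STAT sites and GAAANNGAAA is the core of interferon response elements, and both were searched on both strands. Each window runs from 250 bases before to 50 bases after the annotated start (RefSeq, GRCm38.p6), is written 5′ to 3′ on the gene's strand, and has the match in capitals. The first pair belongs to genes that rose with IL-21, and the capitals mark GAAANNGAAA.
Isg15, chr4:156200769-156201068, minus strand: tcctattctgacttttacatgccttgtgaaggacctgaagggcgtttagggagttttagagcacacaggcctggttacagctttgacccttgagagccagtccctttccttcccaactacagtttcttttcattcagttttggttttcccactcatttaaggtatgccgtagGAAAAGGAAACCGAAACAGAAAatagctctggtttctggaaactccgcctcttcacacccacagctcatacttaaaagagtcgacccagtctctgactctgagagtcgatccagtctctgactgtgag
Cxcl10, chr5:92348840-92349139, minus strand: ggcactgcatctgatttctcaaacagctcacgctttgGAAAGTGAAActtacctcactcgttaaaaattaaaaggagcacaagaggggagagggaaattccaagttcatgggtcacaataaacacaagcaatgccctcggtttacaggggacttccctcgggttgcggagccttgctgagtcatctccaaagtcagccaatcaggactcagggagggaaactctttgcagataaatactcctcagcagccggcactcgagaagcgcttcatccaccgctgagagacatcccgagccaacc
The second pair belongs to genes that fell, and the capitals mark TTCNNNGAA.
Ifng, chr10:118440796-118441095, plus strand: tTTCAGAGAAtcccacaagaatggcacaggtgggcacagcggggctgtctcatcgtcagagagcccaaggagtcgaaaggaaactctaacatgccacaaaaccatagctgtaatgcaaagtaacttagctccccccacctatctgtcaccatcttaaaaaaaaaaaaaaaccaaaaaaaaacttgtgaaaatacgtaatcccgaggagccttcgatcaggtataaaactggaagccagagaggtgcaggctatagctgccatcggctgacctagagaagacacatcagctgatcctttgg
Irf8, chr8:120736108-120736407, plus strand: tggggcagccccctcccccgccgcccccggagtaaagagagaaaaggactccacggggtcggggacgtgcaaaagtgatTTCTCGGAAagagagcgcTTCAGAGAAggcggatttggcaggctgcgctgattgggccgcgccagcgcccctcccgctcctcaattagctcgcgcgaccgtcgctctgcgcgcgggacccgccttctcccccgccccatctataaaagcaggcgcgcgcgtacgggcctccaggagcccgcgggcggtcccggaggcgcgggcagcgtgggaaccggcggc
Isg15 holds 3 overlapping matches that begin 78, 72 and 66 bases before the start, and Cxcl10 holds 1 that begins 213 bases before it. The match of Ifng begins 249 bases before the start, and those of Irf8 begin 171 and 153 bases before it. A second Irf8 start in the table, chr8:120738389-120738688, has neither motif. Over all 32851 windows GAAANNGAAA occurred in 3.44% and TTCNNNGAA in 8.3%. Over the 8332 windows of genes tested the shares were 3.17% and 7.01%. Of the 38 genes that rose 22 had windows, 30 in all, of which 5 (16.7%) held GAAANNGAAA and 2 (6.67%) held TTCNNNGAA. The 5 belong to Cxcl10, Isg15, Phf11a and Slfn8, the last with a pair of overlapping windows. Of the 68 genes that fell 52 had windows, 57 in all, of which 1 (1.75%, that of Serpinb9) held GAAANNGAAA and 7 (12.3%) held TTCNNNGAA. These matches are a description of letters, and no difference between the shares was tested.

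With IL-21, the cytokine genes Ifng and Il2, the granzyme gene Gzmb and the chemokine genes Ccl3, Ccl4 and Ccl5 were lower in the 4 libraries used. Il21 itself, Il24, Isg15, Ly6e and Cd74 were higher. Of the 8554 genes 106 (1.24%) differed at an adjusted p under 0.05 by limma with Benjamini-Hochberg adjustment, 38 of them higher (0.444%) and 68 lower (0.795%) with IL-21. At an unadjusted p under 0.05 there were 1280. The 2 libraries of each group did not overlap in any of the 106, but this is common: 14.0% of all genes tested were separate with the IL-21 pair higher, and 30.3% with it lower. A comparison of 2 libraries with 2 by an exact permutation test could not go below a two-sided p of 0.333, so the calls rest on the spread shared by 16 libraries. The filter adds a limit: 142 genes passed it with both IL-12+IL-21 libraries and neither IL-12 library at 1 TPM, and 125 with the IL-12 pair alone. Such genes had to differ in that direction, and they make up 10 of the 38 higher and 11 of the 68 lower calls. Of the genes named in the text Klrd1, TRNQ and Il18bp are among the 10, and Il10, Xcl1, Havcr2, Dapl1, Wisp1 and Gm3020 among the 11, so their direction supports nothing.

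These counts depend on scaling and on single libraries. The median log2 change of all genes was -0.12, and with median-ratio scaling, which sets it near 0, there were 57 higher and 40 lower, of which 33 and 35 were among the genes above. Without IL-12+IL-21 replicate 2 there were 25 calls, without IL-12 replicate 3 there were 37, without IL-12+IL-21 replicate 1 there were 40 and without IL-12 replicate 2 there were 87. Of the 106 genes 19 were called in all 4 of these fits and 43 in none. With both left-out libraries restored, in the fit of all 21 libraries, 7 genes were called, 4 of them among the 106 (Ccl1, Dapl1, and 2 named after their values were seen, Wisp1 and Gm3020, where all but Ccl1 had passed the filter through the IL-12 pair alone), and 13 of the 106 had the opposite sign. Restoring IL-12 replicate 1 alone left 4 calls (Ccl4, Dapl1, Gmfg and Serpinf1), and restoring IL-12+IL-21 replicate 3 alone left 15. Of the 106 called genes 78 were listed at 0 in IL-12+IL-21 replicate 3 and 21 in IL-12 replicate 1.

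**Figure D1:**
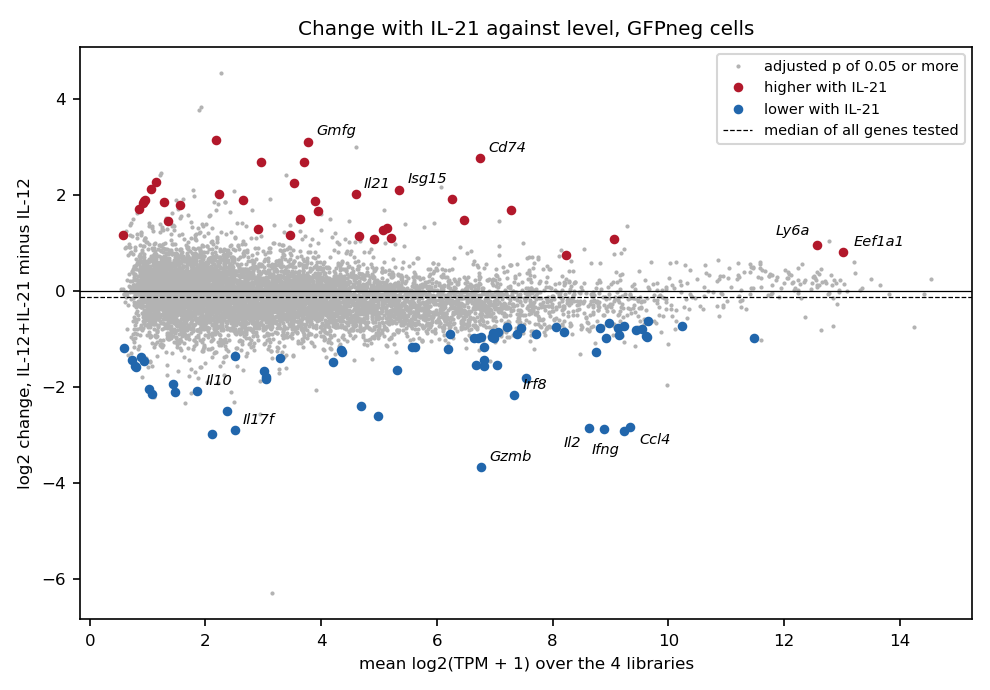
Log2 change (IL-12+IL-21 minus IL-12, GFPneg cells) of each gene tested against its mean log2(TPM + 1) over the 4 libraries, with called genes in red (38 higher) and blue (68 lower). The undescribed row TRNQ is not drawn. The abundant genes Ifng, Il2, Ccl3, Ccl4 and Gzmb have changes from -2.84 to -3.67, and the dashed line at -0.12 is the median of all genes tested.

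Ifng, the Th1 effector cytokine, was at 231 and 131 TPM with IL-21 and at 1121 and 1474 TPM without. Every IL-21 library lay below every IL-12 library, with a 7.17-fold lower mean. The log2 change was -2.88 ± 0.37 (SE, n = 2 and 2; limma adjusted p = 0.000655), and it was called in all 4 fits with a library left out. The left-out libraries go the other way for this gene. IL-12+IL-21 replicate 3 had 1369 TPM, within the IL-12 range, and IL-12 replicate 1 had 78.8 TPM, below both IL-21 libraries. With all 21 libraries the change of Ifng was -0.55 and not called (adjusted p = 1). In GFPpos cells of the same IL-12+IL-21 culture Ifng was at 450, 233 and 300 TPM. These 3 libraries lay below both IL-12 libraries used and above both IL-12+IL-21 GFPneg libraries used, which was not tested here.

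Il2, the T cell growth factor gene, was at 270 and 78.3 TPM with IL-21 and at 994 and 1128 TPM without. The groups were separate, and Il2 fell by 2.86 ± 0.51 on the log2 scale (limma adjusted p = 0.0113). It was not called without IL-12+IL-21 replicate 2 (-1.97, adjusted p = 0.167) or without IL-12 replicate 3 (-2.76, adjusted p = 0.1001). Left-out IL-12 replicate 1 had 76.8 TPM, just below the lowest IL-21 library, and left-out IL-12+IL-21 replicate 3 listed Il2 at 0. Il10, an anti-inflammatory cytokine gene, was low throughout, at 0.75 and 0.78 TPM with IL-21 and 7.90 and 5.26 TPM without. Il10 passed the filter through the IL-12 pair alone. It fell by 2.08 ± 0.36 (limma adjusted p = 0.00912) and was listed at 0 in both left-out libraries. Il10 kept the call only without IL-12 replicate 3, and had adjusted p from 0.0560 to 0.0879 without any of the other 3 libraries.

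Il21 was at 52.2 and 43.7 TPM with IL-21 in the medium and at 12.3 and 9.76 TPM without. What is measured is the cells' own transcript, not the added protein, and its lowest IL-21 library lay well above the highest IL-12 library. Il21 rose by 2.03 ± 0.39 (limma adjusted p = 0.0166), a 4.35-fold difference of means. It was called without IL-12 replicate 2, and not called without any of the other 3 libraries (adjusted p from 0.0984 to 0.155). GFPpos cells of IL-12+IL-21 had 70.5, 47.3 and 68.1 TPM, and the left-out libraries had 0 with IL-21 and 0.24 TPM without. Il24, a cytokine gene of the IL-10 family, was at 49.9 and 60.6 TPM against 19.1 and 23.9 TPM. It was listed at 0 in left-out IL-12+IL-21 replicate 3 and had 0.69 TPM in left-out IL-12 replicate 1. It rose by 1.32 ± 0.24 (limma adjusted p = 0.0127), and lost the call without IL-12+IL-21 replicate 2 (adjusted p = 0.159) or IL-12 replicate 2 (adjusted p = 0.0758).

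The list of cytokine genes had 27 members tested, of which 2 rose (Il21 and Il24) and 4 fell (Ifng, Il2, Il17f and, with the limit given above, Il10). Its median log2 change was -0.41, beside -0.12 for all genes. Of all genes tested 0.444% were called higher and 0.795% lower, the shares to set beside this and the other lists. Csf2, the GM-CSF gene, was listed at 0 in all 4 libraries.

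Chemokine genes gave the lowest median of the lists shown, at -1.46. Of 11 tested members 5 fell (0.795% over all genes) and 1 rose (0.444% over all genes). Ccl4, an inflammatory chemokine gene, was at 298 and 161 TPM with IL-21 and at 1327 and 2093 TPM without. It fell by 2.92 ± 0.35 (limma adjusted p = 0.000388) and was called in all 4 fits with a library left out. Its left-out libraries keep the order, with 416 TPM in IL-12+IL-21 replicate 3 and 1811 TPM in IL-12 replicate 1. Ccl3, its neighbour on chromosome 11, was at 348 and 168 TPM against 1422 and 2119 TPM. It fell by 2.84 ± 0.51 (limma adjusted p = 0.0113), but left-out IL-12 replicate 1 had 220 TPM, within the IL-21 range. Ccl3 was not called without IL-12+IL-21 replicate 2 or IL-12 replicate 3 (adjusted p = 0.167 and 0.128).

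Ccl1, a ligand of CCR8, was at 1.37 and 0 TPM with IL-21 and 16.8 and 7.26 TPM without (limma adjusted p = 0.00717). It lost the call without IL-12+IL-21 replicate 2 (adjusted p = 0.125) or IL-12 replicate 2 (adjusted p = 0.0560). Ccl5 and Xcl1 were named after their values were seen. Ccl5 was at 61.8 and 92.7 TPM against 270 and 182 TPM (limma adjusted p = 0.0400), was not called under median-ratio scaling (adjusted p = 0.0680), and lost the call whichever library was left out (adjusted p from 0.0942 to 0.188). The left-out libraries had Ccl5 at 564 TPM with IL-21 and 617 TPM without, so that they did not differ in the same way. Xcl1, lymphotactin, which passed the filter through the IL-12 pair alone, was at 0 and 0.93 TPM against 2.43 and 7.33 TPM (limma adjusted p = 0.0223), and was not called without IL-12+IL-21 replicate 1 (adjusted p = 0.160) or IL-12 replicate 3 (adjusted p = 0.243).

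Cxcl10, an interferon-induced ligand of CXCR3, was the chemokine gene that rose. It was at 25.4 and 23.3 TPM with IL-21 and at 5.67 and 3.24 TPM without, a change of 2.25 ± 0.48 (limma adjusted p = 0.0290). The groups were well apart, yet the call held only without IL-12 replicate 2, and without any of the other 3 libraries adjusted p was 0.124 to 0.246. Both left-out libraries listed Cxcl10 at 0. Its receptor gene Cxcr3, also named after its values were seen, was at 14.4 and 13.9 TPM with IL-21 and 9.29 and 9.28 TPM without (limma adjusted p = 0.512).

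**Figure D2:**
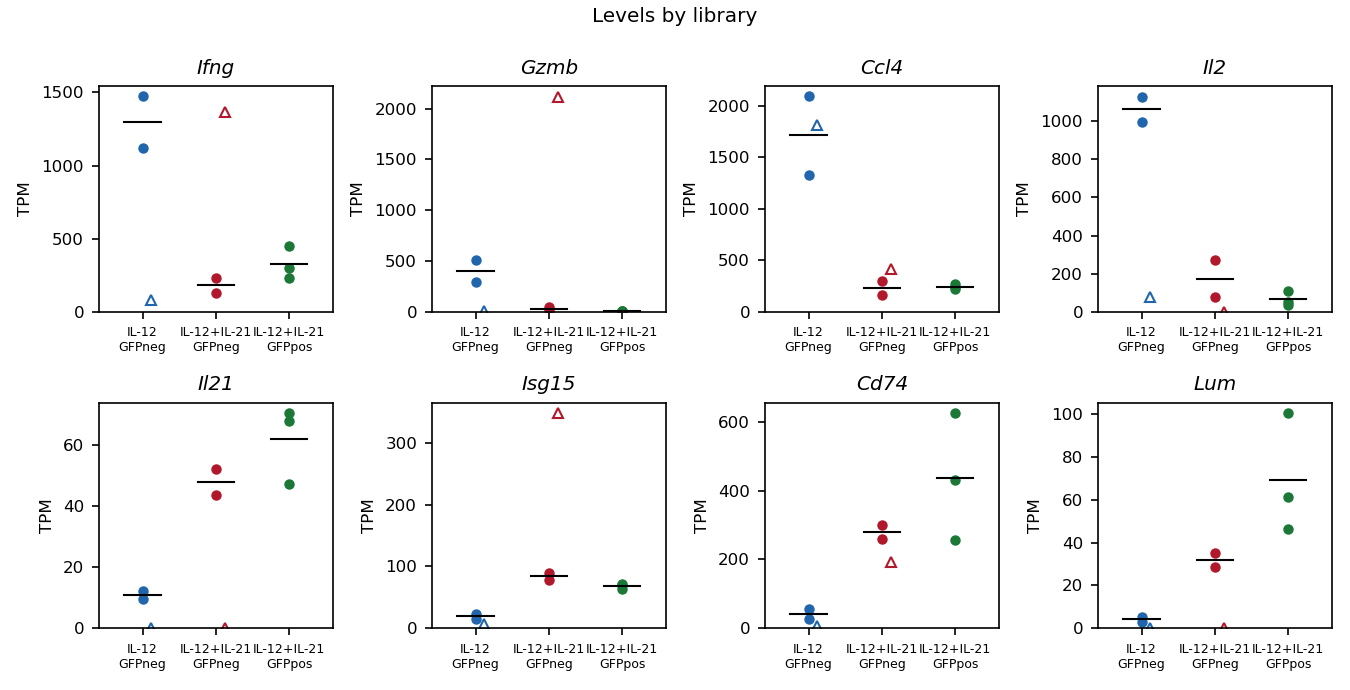
TPM of 8 genes in each library, with filled circles for IL-12 GFPneg (blue, n = 2), IL-12+IL-21 GFPneg (red, n = 2) and IL-12+IL-21 GFPpos (green, n = 3), horizontal bars at their means, and open triangles for the left-out libraries. The left-out IL-12+IL-21 library is at 1369 TPM for Ifng and 2118 TPM for Gzmb, on the IL-12 side, and at 416 TPM for Ccl4 and 193 TPM for Cd74, on the side of its own group.

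Gzmb, the granule protease granzyme B, had the largest fall of the genes named, at 47.0 and 18.2 TPM with IL-21 and 290 and 509 TPM without. The mean was 12.3-fold lower, and the log2 change was -3.67 ± 0.43 (limma adjusted p = 0.000388), called in all 4 fits with a library left out. In the left-out libraries the order of Gzmb was the opposite. It was at 2118 TPM in IL-12+IL-21 replicate 3, above every other library of both groups, and at 12.1 TPM in IL-12 replicate 1, below all of them. With all 21 libraries the change was 0.004 (adjusted p = 1), so the fall of Gzmb holds for the 4 libraries used and not for all 6. GFPpos cells had 8.72, 7.58 and 10.3 TPM.

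Genes of a pair of intracellular serine protease inhibitors also fell. Serpinb9, which inhibits granzyme B, was at 62.5 and 55.1 TPM with IL-21 and at 189 and 156 TPM without (limma adjusted p = 0.00701). It had 189 TPM in left-out IL-12+IL-21 replicate 3 and 3.5 TPM in left-out IL-12 replicate 1, which again reverses the order, and it lost the call without IL-12+IL-21 replicate 2 (adjusted p = 0.0984) or IL-12 replicate 2 (adjusted p = 0.0523). Serpinb6b, a related gene, was at 101 and 95.5 TPM against 383 and 316 TPM. It fell by 1.81 ± 0.24 (limma adjusted p = 0.000842) and kept the call in all 4 fits with a library left out, with 0 and 2.34 TPM in the left-out libraries.

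Of the 13 tested cytotoxic granule and natural killer receptor genes 3 fell (Gzmb, Serpinb9 and Serpinb6b) and 1 was called higher, with a median of -0.59. The higher one, Klrd1, the CD94 receptor chain, which passed the filter through the IL-21 pair alone, was at 2.5 and 3.02 TPM with IL-21 and listed at 0 in both IL-12 libraries (limma adjusted p = 0.0166), and it lost the call whichever library was left out (adjusted p from 0.0579 to 0.163). Nkg7, a granule membrane protein gene, was at 619 and 420 TPM against 1574 and 2477 TPM and did not pass (limma adjusted p = 0.0741). Klrd1 and Nkg7 were named after their values were seen. Cd160 was listed at 0 in all 4 libraries.

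Few receptor and signalling genes passed the test. Il21r, the receptor of the added cytokine, was at 331 and 199 TPM with IL-21 and at 332 and 314 TPM without (limma adjusted p = 0.566), with overlapping groups. None of 10 tested genes of the IL-21 receptor complex and other gamma-chain receptors was called, with a median of 0.21, and none of 13 JAK-STAT feedback genes, with a median of 0.13. Socs3, a STAT3-induced inhibitor, was at 22.7 and 16.2 TPM against 12.03 and 15.2 TPM (limma adjusted p = 0.511). Il12rb2, the signalling chain of the IL-12 receptor, was at 184 and 116 TPM against 114 and 131 TPM (limma adjusted p = 0.75), with overlapping groups. Stat4, which was named after its values were seen, was at 17.6 and 15.9 TPM against 25.6 and 22.6 TPM (limma adjusted p = 0.473). Stat2, a factor of interferon signalling, was at 16.3 and 11.7 TPM against 7.60 and 6.20 TPM (limma adjusted p = 0.149). It was called higher with median-ratio scaling (adjusted p = 0.0377). Il23r was the 1 called gene among 14 genes of the IL-12 family receptors, kinases and STATs.

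Tbx21, which encodes T-bet, was at 32.9 and 70.8 TPM with IL-21 and at 49.7 and 79.4 TPM without, with overlapping groups (limma adjusted p = 0.834). Of the 21 tested genes of the Th1 program 6 fell and none rose: Ifng, Il2, Ccl3, Ccl4, Ccl5 and Havcr2. Over all genes tested 0.795% were called lower and 0.444% higher. The median of the list was -0.37, beside -0.12 for all genes. Havcr2, the co-inhibitory receptor TIM-3, passed the filter through the IL-12 pair alone. It was listed at 0 in both IL-21 libraries and at 1.44 and 1.15 TPM in the IL-12 libraries (limma adjusted p = 0.0323), and lost the call whichever library was left out (adjusted p from 0.113 to 0.189).

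Irf8, a transcription factor that interferon gamma is known to induce, was at 65.4 and 85.9 TPM with IL-21 and at 278 and 419 TPM without. It fell by 2.17 ± 0.44 (limma adjusted p = 0.0223), and the groups were far apart. Left-out IL-12+IL-21 replicate 3 had 228 TPM and left-out IL-12 replicate 1 had 19.6 TPM. The call was kept without IL-12 replicate 2 only, with adjusted p from 0.101 to 0.217 without any of the other 3. Irf8 was the 1 called gene of 20 in the list of interferon-gamma-inducible GTPase genes, Irf1 and Irf8, whose median was 0.13. Batf, an AP-1 factor of activated T cells, was at 78.1 and 69.7 TPM against 151 and 142 TPM (-0.98 ± 0.20, limma adjusted p = 0.0253). It was not called under median-ratio scaling (adjusted p = 0.0557) or without any 1 library (adjusted p from 0.0956 to 0.201). Batf and Irf8 were the 2 called genes among 32 tested lineage and activation transcription factor genes. Maf, Bcl6 and Prdm1, factors known to respond to IL-21, were at 1.15 TPM or less in all 4 libraries and were not tested.

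Il23r, the gene behind the sort, was at 3.04 and 6.36 TPM with IL-21 and at 1.50 and 0 TPM without. Both groups are cells that the gate called reporter-negative, and GFPpos cells of the same culture had 31.8, 24.2 and 36.4 TPM. Il23r rose by 1.79 ± 0.41 (limma adjusted p = 0.0434), but was called without IL-12 replicate 2 only, and had adjusted p from 0.0557 to 0.381 without any of the other 3 libraries. The reporter row EGFP_IRES_IL23R, which may share reads with Il23r, was at 5.29 and 2.04 TPM against 0.70 and 1.23 TPM and did not pass (limma adjusted p = 0.254).

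The 16 tested genes of the Th17 program split. Il21, Il24 and Il23r rose, Il17f and Batf fell, and the median was 0.72. Il17f was at 1.70 and 0.59 TPM with IL-21 and at 23.1 and 8.94 TPM without, a log2 change of -2.90 ± 0.36 (limma adjusted p = 0.000497) that was called in all 4 fits with a library left out. Both left-out libraries listed Il17f at 0. Its neighbour Il17a was at 0.43 and 0.89 TPM against 2.25 and 1.50 TPM (limma adjusted p = 0.360), and Il22 at 0 and 1.62 TPM against 9.04 and 1.64 TPM (limma adjusted p = 0.230). Ccr6, a homing receptor of Th17 cells, had a limma adjusted p of 0.0564 and was called with median-ratio scaling (adjusted p = 0.0139).

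The list of IL-21 and STAT3 response genes was also mixed, with 2 of 21 tested genes rising (Il21 and Il23r), 3 falling (Gzmb, Il10 and Batf) and a median of 0.22. Gzmb and Il10 are in the list as genes known to respond to IL-21. Hif1a, the hypoxia factor gene, named after its values were seen, was at 176 and 196 TPM with IL-21 and 99.1 and 92.9 TPM without (limma adjusted p = 0.0786), and was called with median-ratio scaling (adjusted p = 0.0289). Of the 13 tested genes of IL-10-producing type 1 regulatory cells 3 fell (Il10, Havcr2 and Batf), against 0.795% of all genes. None rose, and the median was -0.45. Il10 and Havcr2 could pass the filter only by being higher without IL-21. Gata3, the Th2 factor gene, was at 3.70 and 4.61 TPM against 7.21 and 6.72 TPM (limma adjusted p = 0.399).

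**Figure D3:**
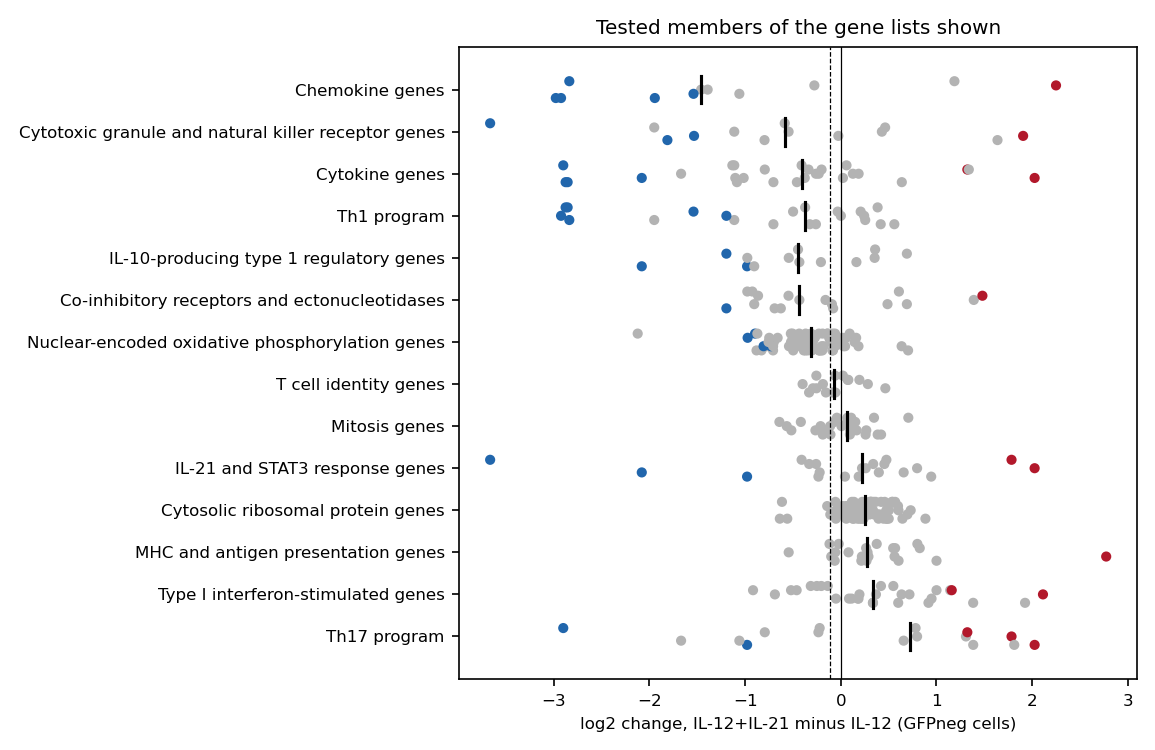
Log2 change (IL-12+IL-21 minus IL-12) of each tested member of 14 gene lists, red where called higher, blue where called lower and grey where not called, with a black bar at the list's median and a dashed line at -0.12, the median of all genes tested. The bars run from -1.46 for chemokine genes to 0.72 for the Th17 program, and some genes stand in more than 1 list.

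Isg15, a ubiquitin-like protein induced by interferons, was at 78.1 and 90.2 TPM with IL-21 and at 23.7 and 14.5 TPM without. It rose by 2.11 ± 0.25 (limma adjusted p = 0.000388), was called in all 4 fits with a library left out, and the left-out libraries were farther apart in the same direction, at 348 TPM with IL-21 and 6.5 TPM without. Many genes read low in the left-out library without IL-21, so a rise readily keeps its order there. Of 30 tested type I interferon-stimulated genes 2 rose, Isg15 and Slfn8, against 0.444% of all genes. None fell, and the median was 0.34. Slfn8, of the Schlafen family, was at 16.1 and 14.7 TPM against 7 and 5.7 TPM (limma adjusted p = 0.0288) and lost the call whichever library was left out (adjusted p from 0.0565 to 0.229). Irf7 and Phf11b were not called (limma adjusted p = 0.0864 and 0.0601). Both depend on IL-12 replicate 2, without which they were called higher (adjusted p = 0.00437 and 0.000140). Phf11a, a PHD finger gene beside Phf11b, was at 9.58 and 7.47 TPM against 0.63 and 2.34 TPM (2.02 ± 0.35, limma adjusted p = 0.00973), and was called without IL-12 replicate 3 only (adjusted p from 0.0553 to 0.0971 otherwise).

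The surface protein genes Ly6e and Ly6a, which interferons are known to raise in T cells, were both higher. Ly6e was at 243 and 319 TPM with IL-21 and at 100 and 73.7 TPM without, a rise of 1.68 ± 0.21 (limma adjusted p = 0.000497) that was called in all 4 fits with a library left out. Left-out IL-12+IL-21 replicate 3 listed it at 0, and left-out IL-12 replicate 1 had 16.2 TPM. Ly6a, which encodes Sca-1, was among the most abundant transcripts, at 8390 and 8598 TPM against 5053 and 3780 TPM. It rose by 0.96 ± 0.20 (limma adjusted p = 0.0229), was not called under median-ratio scaling (adjusted p = 0.116), and was called without IL-12 replicate 2 only (adjusted p from 0.0980 to 0.250 otherwise). The left-out libraries had 8499 TPM with IL-21 and 1314 TPM without, in the same order, though many genes read low in the latter. Ly6c1, from the same cluster, was at 107 and 190 TPM against 32.1 and 29.5 TPM and did not pass (limma adjusted p = 0.0625). Ly6 genes are close copies of each other and may share reads.

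Cd74, the invariant chain that guides MHC class II, was at 299 and 260 TPM with IL-21 and at 56.0 and 28.4 TPM without. It rose by 2.78 ± 0.38 (limma adjusted p = 0.00111), was called in all 4 fits with a library left out, and kept its order in the left-out libraries, at 193 and 5.56 TPM. Many genes read low in left-out IL-12 replicate 1, so a rise readily keeps its order there. GFPpos cells of IL-12+IL-21 had Cd74 at 430, 256 and 625 TPM. B cells also express Cd74. Their markers, among which Cd79a was listed at 0, had 4 of 11 listed at 0 in all 4 libraries. Of the 4 tested, 3 had a positive change and none was called, with a median of 0.247. Ighm was lower with IL-21, at 8.03 and 9.83 against 13.5 and 23.1 TPM. Ebf1 was higher, at 5.03 and 5.01 against 4.2 and 1.59 TPM. Fcer2a overlapped, at 3.11 and 2.28 against 1.08 and 2.6 TPM. The summed level of B cell markers was 17.3 and 23.7 TPM with IL-21 and 24.6 and 28.2 TPM without. For myeloid and dendritic markers the sums were 164 and 185 against 140 and 158 TPM, with 10 of 17 markers listed at 0 in all 4 libraries. Most of each sum was Batf3 alone, at 117 and 135 against 100 and 115 TPM. The part of the B cell, myeloid and dendritic markers in the result was not tested. Cd74 was the 1 gene called among 22 tested MHC and antigen presentation genes, whose median was 0.28. B2m, the light chain of MHC class I, did not pass (limma adjusted p = 0.123).

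Cd83, Cd70 and Tnfrsf4, genes of surface proteins, were called lower. Cd83 was at 13.9 and 9.86 TPM with IL-21 and at 81.9 and 71.7 TPM without, a log2 change of -2.61 ± 0.38 (limma adjusted p = 0.00188) called in all 4 fits with a library left out. Cd70, the ligand of CD27, was at 13.0 and 8.04 TPM against 62.7 and 53.7 TPM (-2.39 ± 0.53, limma adjusted p = 0.0379), and lost the call whichever library was left out (adjusted p from 0.0978 to 0.285). Left-out IL-12 replicate 1 had Cd83 at 2.69 TPM, below the IL-21 libraries, and Cd70 at 56.1 TPM, beside the IL-12 libraries. It had Tnfrsf4 at 456 TPM, and left-out IL-12+IL-21 replicate 3 had 1033 TPM, the opposite order to the call. Tnfrsf4, the costimulatory receptor OX40, was at 1021 and 854 TPM against 1407 and 1685 TPM (-0.72 ± 0.17, limma adjusted p = 0.0498). It was the 1 called gene of 16 in its family, and was not called under median-ratio scaling (adjusted p = 0.190) or without any 1 library (adjusted p from 0.0683 to 0.360). Lilrb4a, an inhibitory receptor of the immunoglobulin family, was higher, at 141 and 153 TPM against 49.5 and 54.5 TPM (1.48 ± 0.25, limma adjusted p = 0.00701), and lost the call without IL-12+IL-21 replicate 2 (adjusted p = 0.0935). With Havcr2 it made up the 2 called of 17 tested co-inhibitory receptor and ectonucleotidase genes. Its close copy Lilr4b, with which it may share reads, did not pass (limma adjusted p = 0.103), nor did Ctla4 (0.126) or, named after its values were seen, Lag3 (0.268).

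Among the other large rises were genes of secreted and matrix proteins. Lum, a collagen-binding proteoglycan, was at 35.3 and 28.8 TPM with IL-21 and at 5.42 and 3.09 TPM without (2.68 ± 0.35, limma adjusted p = 0.000669), and GFPpos cells had 61.0, 46.5 and 100 TPM. Serpinf1, which encodes the secreted factor PEDF, was at 19.5 and 17.8 TPM against 3.37 and 1.12 TPM (2.69 ± 0.33, limma adjusted p = 0.000432). Igfbp4, a binding protein of insulin-like growth factors, was at 28.3 and 27.1 TPM against 6.22 and 7.37 TPM (1.88 ± 0.29, limma adjusted p = 0.00300). These 3 were called in all 4 fits with a library left out, and in the left-out libraries none was above 2.08 TPM. Ecm1, the extracellular matrix protein 1 gene, was at 20.2 and 35.0 TPM against 8.57 and 6.84 TPM (limma adjusted p = 0.0112), and was not called without IL-12+IL-21 replicate 2 (adjusted p = 0.172) or IL-12 replicate 3 (adjusted p = 0.114).

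Genes that act inside the cell also rose. Gmfg, an actin-remodelling factor of blood cells, was at 27.1 and 56.6 TPM with IL-21 and at 2.80 and 4.67 TPM without (3.12 ± 0.31, limma adjusted p = 9.05e-05). Smox, spermine oxidase, was at 146 and 152 TPM against 56.6 and 26.0 TPM (1.92 ± 0.30, limma adjusted p = 0.00300). Gmfg and Smox were called in all 4 fits with a library left out. Gap43, a growth-associated membrane protein best known from neurons, was at 13.5 and 11.7 TPM against 0 and 1.31 TPM, and lost the call without IL-12 replicate 2 (adjusted p = 0.0523). Lmna, which encodes lamin A, was at 16.9 and 7.24 TPM against 3.35 and 1.46 TPM, and lost it without IL-12+IL-21 replicate 1 (adjusted p = 0.141) or IL-12 replicate 3 (adjusted p = 0.216). Satb1, a chromatin organiser of T cells, was at 35.7 and 36.9 TPM against 20.9 and 12.03 TPM (limma adjusted p = 0.0320), and was called without IL-12 replicate 2 only (adjusted p from 0.123 to 0.332 otherwise). The largest change of all was that of TRNQ, a row that the table does not describe. It was at 866 and 2441 TPM with IL-21 and listed at 0 in both IL-12 libraries used, so that it passed the filter through the IL-21 pair alone, but left-out IL-12 replicate 1 had 3642 TPM and left-out IL-12+IL-21 replicate 3 had 0.

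The remaining large falls were mostly of genes at a low level. Lad1, the anchoring-filament protein ladinin, was at 1.33 and 1.04 TPM with IL-21 and at 13.8 and 9.33 TPM without (-2.50 ± 0.33, limma adjusted p = 0.000669), called in all 4 fits with a library left out. Eno3, the muscle form of enolase, was at 2.98 and 3.80 TPM against 10.8 and 19.8 TPM, and Mycbp, a MYC-binding protein gene, at 2.90 and 4.26 TPM against 13.6 and 13.0 TPM (limma adjusted p = 0.0323 and 0.0463). Neither was called with median-ratio scaling (adjusted p = 0.0519 and 0.0533). Mycbp lost the call whichever library was left out (adjusted p from 0.133 to 0.217), and Eno3 kept it without IL-12 replicate 2 only (adjusted p from 0.142 to 0.309 otherwise). Dapl1 was at 1.97 and 1.98 TPM in the IL-12 libraries and listed at 0 in both IL-21 libraries, a call kept in all 4 fits with a library left out. It passed the filter through the IL-12 pair alone. Hist1h2bc was the 1 called of 37 tested replication-dependent histone genes, at 62.0 and 66.9 TPM against 168 and 221 TPM (limma adjusted p = 0.0336), and lost the call whichever library was left out (adjusted p from 0.0611 to 0.268).

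**Figure D4:**
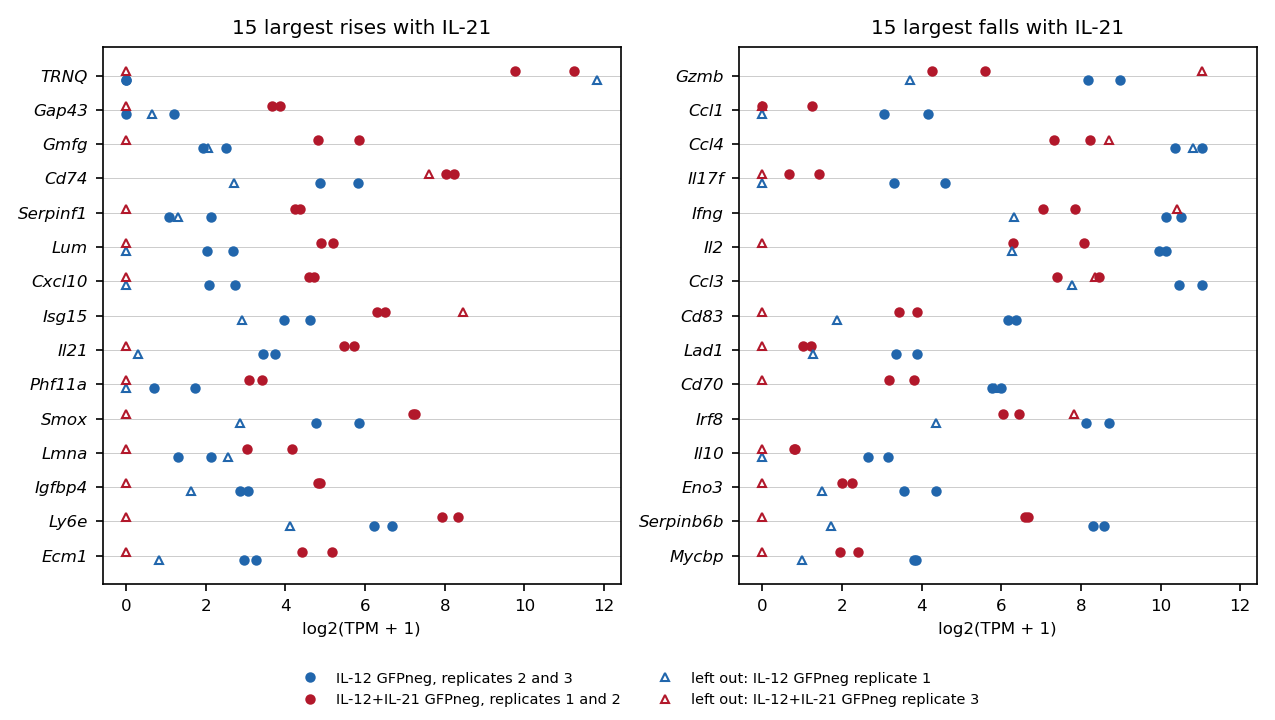
Log2(TPM + 1) of the 15 largest rises (left) and 15 largest falls (right) chosen by the naming rule, with filled circles for the 4 libraries used (blue IL-12, red IL-12+IL-21) and open triangles for the left-out libraries. The left-out IL-12+IL-21 library lists 13 of the 15 rises and 10 of the 15 falls at 0, and the left-out IL-12 library lies within or past the IL-21 libraries in 12 of the 15 falls and 1 of the 15 rises. Many genes read low in the left-out IL-12 library, so falls lose their order there more readily than rises.

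Lists of metabolic, translation and cell cycle genes held few calls. Of 79 tested nuclear-encoded oxidative phosphorylation genes 4 fell, against 0.795% of all genes, and none rose. The median was -0.31, which was -0.16 with median-ratio scaling. In 50 of the 79 the IL-21 pair was separate and lower, against 30.3% of all genes. Uqcr10, Ndufa7, Ndufa4 and Ndufa5 fell by 0.81, 0.73, 0.97 and 0.90 on the log2 scale, and none of the 4 was called with median-ratio scaling (limma adjusted p from 0.0836 to 0.291). Ndufa5 was named after its values were seen. In left-out IL-12+IL-21 replicate 3 and IL-12 replicate 1, Ndufa4 was at 1267 and 556 TPM and Ndufa5 at 539 and 168 TPM. That order is opposite to the falls. Uqcr10 (0 and 4406 TPM) and Ndufa7 (0 and 1218 TPM) kept the order there. Ndufa4, Ndufa5 and Ndufa7 lost the call whichever library was left out, and Uqcr10 kept it without IL-12 replicate 2 only (adjusted p from 0.0978 to 0.199 otherwise). Of 84 tested cytosolic ribosomal protein genes none was called and 62 had the IL-21 pair separate and higher, against 14.0% of all genes. Their median was 0.25, which was 0.40 with median-ratio scaling. Eef1a1, the translation elongation factor named after its values were seen, rose by 0.82 (limma adjusted p = 0.0121), and was called without IL-12 replicate 2 only (adjusted p from 0.0510 to 0.158 otherwise). The ribosomal protein share of TPM was 37.1% and 42.5% with IL-21 and 34.6% and 34.4% without, and its part in these values was not tested. None of 27 tested mitosis, 34 DNA replication, 28 glycolysis, 31 cholesterol and fatty acid synthesis or 16 T cell identity genes was called, with medians of 0.07, 0.06, 0.11, -0.04 and -0.07.

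The genes that the comparison turns on lie, in GRCm38 with GENCODE M21, as follows, and all are protein-coding. Ifng lies on chromosome 10 from 118441046 to 118445892 (plus strand) and Gzmb on chromosome 14 from 56258838 to 56262260 (minus). Il2 lies on chromosome 3 from 37120523 to 37125959 (minus), near Il21 at 37222759 to 37232636 (minus). Ccl3 and Ccl4 are neighbours on chromosome 11, at 83647844 to 83649355 (minus) and 83662584 to 83664683 (plus). Isg15 lies on chromosome 4 from 156199424 to 156200818 (minus), and Cd74 on chromosome 18 from 60803848 to 60812652 (plus).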

How the data were processed

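RNA was measured in 21 libraries, 3 in each of 7 groups. The authors deposited 1 table of TPM values for 23415 gene rows. The build GRCm38 and the tools RSEM 1.2.31, Bowtie2 2.2.9 and Trimmomatic 0.32 are named in the submitters' processing notes. Settings, the annotation and any use of strand are not given in the sources used here. Every library sums to the same total, so read depth is unknown and counting error is not given. A value of 0 can be a failed estimate and is called listed at 0. As a share, TPM falls for a gene when others gain. Columns were matched to samples by name, and 0 columns lacked a sample. Symbols matched GENCODE M21 for 22434 rows and RefSeq synonyms for 437, with 544 unmatched.

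Log2(TPM + 1) values were tested with limma 3.58.1 (R 4.3.3). The fit had 1 mean per group, a trended empirical Bayes prior and no block, and p-values were adjusted by Benjamini-Hochberg over all 8554 genes, at an adjusted p under 0.05. The contrast was IL-12+IL-21 GFPneg minus IL-12 GFPneg, with 16 libraries sharing 1 estimate of the spread. The log2 changes understate those of low genes. The procedure was tested on simulated data.

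Genes were named if they were called, changed by at least 1 on the log2 scale without overlap, had a mean of at least 5 TPM in the higher group and had no predicted-gene or receptor-segment symbol, taking the 15 largest in each direction. Up to 3 genes of each of 42 lists with the smallest adjusted p, and a set of cytokine and lineage genes, were added. The comparison, its members and the lists were chosen with earlier results of these data known. Also tried were a pseudocount of 0.1 or 5, a minimum of 5 TPM or none, 3 other scalings, other sets of libraries, a replicate block, array weights, no trend, and each library left out in turn.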

Additional observations from a re-analysis of the deposited data

How the results depend on the processing

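Of the 106 calls (38 higher, 68 lower), none changed direction under another scaling or with a block. Nor did any under another pseudocount, filter, spread or weighting, or without 1 of the 4 libraries. The groups did not overlap in any of the 106, so this second set of settings could not change a direction and supports nothing. At a minimum of 5 TPM 86 of the 106 were fitted. The count lay within 1.5 times of 106 for pseudocounts of 0.1 (73, of which 38 lower) and 5, both filters, quantile normalization (144, of which 93 higher), median-ratio scaling (40 lower), removal of ribosomal protein genes (96, of which 43 lower), the 7 libraries of the 2 cytokine conditions (73, of which 37 lower) and array weights. It fell to 52 without the trend (23 higher, 29 lower) and to 32 with only the 4 libraries compared (18 and 14), of which 24 were among the 106. Leaving out 1 library gave 25 to 87 calls, 11 to 49 higher and 14 to 38 lower. All 21 libraries gave 7 (2 higher, 5 lower), IL-12 replicate 1 restored gave 4 (2 and 2), and IL-12+IL-21 replicate 3 restored gave 15 (2 and 13).

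The labels do not tell whether a replicate number pairs libraries across groups. Among the 16 libraries, the deviations of same-numbered pairs had a median correlation of 0.071 (31 pairs, 10 of them over 0.1). Pairs with different numbers had a median of -0.015 (62 pairs, 2 of them over 0.1). Same-numbered libraries thus tended to be more alike, which the main fit, having no block, does not take into account. The groups compared share 1 number, 2, whose libraries' deviations correlated at 0.003. Their other libraries differ in number, so replicate number is partly mixed with the comparison. With the replicate number as a block there were 218 calls, 74 higher and 144 lower, and 99 of the 106 were kept. Tbx21 changed by 0.251 with the block, against a negative change without it, and was called in neither.

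Called genes that the text names reversed only when left-out libraries were restored. With all 21 libraries, log2 changes were -0.247 for Ly6e, 0.004 for Gzmb and 0.777 for Serpinb9. With IL-12 replicate 1 restored they were 0.423 for Serpinb6b and 0.221 for Serpinb9. With IL-12+IL-21 replicate 3 restored they were -0.485 for Smox, -1.026 for Ly6e, -0.612 for Il24, -0.921 for Lilrb4a and -0.184 for Slfn8. Of genes not called, Il21r (1.029), Tbx21 (1.423) and Socs3 (-0.179) reversed with all 21 libraries, Il21r (1.042), Tbx21 (1.154), Stat4 (0.847) and Ctla4 (0.815) with IL-12 replicate 1 restored, and Socs3 (-0.968), Stat2 (-0.380) and Cxcr3 (-0.747) with IL-12+IL-21 replicate 3 restored. With each of the 4 libraries left out in turn, the changes ran from -0.697 to 0.037 for Il21r, from -0.914 to 0.170 for Tbx21 and from -0.074 to 0.586 for Il12rb2. Smox, Ly6e, Il24, Lilrb4a, Slfn8, Socs3, Stat2 and Cxcr3 were listed at 0 in IL-12+IL-21 replicate 3, which sets part of their values. Gzmb, Serpinb9, Il21r and Tbx21 were above 0 in both left-out libraries. Serpinb6b (2.34 TPM), Stat4 (0.53 TPM) and Ctla4 (1.59 TPM) were low but above 0 in IL-12 replicate 1. The cause of the reversals was not tested. Read depth is unknown, so its limit on low genes could not be stated.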

Other observations

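Some called genes outside the naming rule were chosen after their values were seen. Vim, the intermediate filament protein vimentin, was at 866 and 695 TPM with IL-21 and at 390 and 340 TPM without (1.09 ± 0.22, limma adjusted p = 0.0218). Il18bp, a secreted inhibitor of the Th1 cytokine IL-18, was at 4.49 and 2.88 TPM against 0 and 0.61 TPM (limma adjusted p = 0.0328), and passed the filter through the IL-21 pair alone. These 2 genes were higher with IL-21, and both lost the call whichever library was left out (adjusted p from 0.0514 to 0.188 for Vim and from 0.0763 to 0.165 for Il18bp). Samsn1, an adaptor of lymphocyte signalling, was at 22.9 and 20.0 TPM against 66.3 and 72.8 TPM (-1.65 ± 0.29, limma adjusted p = 0.00938). Gpx1, glutathione peroxidase, was at 656 and 494 TPM against 1029 and 1189 TPM (-0.96 ± 0.18, limma adjusted p = 0.0161). Both fell, and each kept the call in 2 of the 4 fits with a library left out.

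The lists not described above held few calls. Among naive and stem-like T cell genes, Igfbp4 and Satb1 rose and Dapl1, which passed the filter through the IL-12 pair alone, fell, of 17 tested, with a median of 0.34. Follicular helper genes had 1 call (Il21) of 14, regulatory T cell genes 1 (Il10, with the filter limit given above) of 10, and Th2 genes 2 (Il24 and Il10) of 9, with medians of -0.22, -0.36 and -0.63. None was called among 20 chemokine and homing receptor genes (median -0.06), 25 heat shock and unfolded protein response genes (0.28), 24 immediate early genes (-0.22), 23 survival and apoptosis genes (-0.34), 14 metallothionein, redox and iron genes (-0.18) or 8 TGF-beta pathway genes (0.08). The median of all genes tested was -0.12.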
